A study of Homo sapiens with 8 samples.

Results

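The genes described here code for the RNA polymerase II (Pol II) transcription machinery and were chosen by symbol alone. They are the rows of the count table whose symbol starts with POLR2, with MED or TAF followed by a digit, with GTF2 or with SUPT, leaving out symbols that end in P and digits and hyphenated names. This rule took 92 of the 10105 genes. By role they were 12 subunits of Pol II, 3 further POLR2J copies and POLR2M, 29 subunits of Mediator, 15 TBP-associated factors (TAFs) of TFIID, 15 genes of the factors TFIIA to TFIIH, 5 of the SAGA coactivator beside the TAFs it shares with TFIID, 4 TAFs of the Pol I factor SL1, 4 elongation and histone chaperone genes, 2 of the TFII-I family, TAF15 and MED14OS. The stems therefore also caught genes that are not part of the Pol II machinery, among them the SL1 TAFs and MED14OS, a long noncoding RNA on the strand opposite MED14.

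The study asked how loss of the 5′-3′ exoribonuclease XRN1 affects mRNA abundance and translation. From WT cells and XRN1-null cells of HEK293T, an established human embryonic kidney line, the study made libraries of total mRNA (RNA-Seq) and of ribosome-protected fragments (RPF, Ribo-Seq). Each genotype had 2 biological replicates per assay, so there were 8 libraries. The XRN1-null cells were 1 line made by CRISPR/Cas9 editing with a guide RNA to a coding exon of XRN1, and both genotypes were harvested the day after plating. Differences between the genotypes therefore cannot be told apart from differences between this line and its parent.

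XRN1 itself, examined first, had 34.4 and 49.8 CPM (counts per 1 M counts of the library, scaled as described below) of footprints in the WT replicates against 22.6 and 18.4 CPM in the XRN1-null replicates, lower in both. Its RNA-Seq level was higher in both XRN1-null libraries, with 33.5 and 33.0 CPM against 282 and 253 CPM, so the RNA does not check the labels, and the cause of its higher level was not tested. RNA-Seq libraries held 33757487 to 38145433 counts and Ribo-Seq libraries 1921641 to 4399542, of which the 92 genes took 0.663 to 0.712% and 0.692 to 0.728%. All 92 had at least 10 counts in every library, the lowest being 12 in the shallowest Ribo-Seq library, WT replicate 1. Of 8 genes that mark HEK293 cells, 6 were in the table. By the mRNA test described below NEFM was lower (124 and 166 against 93.6 and 99.7 CPM, edgeR FDR = 0.00455) and KRT18 higher (55.4 and 64 against 83.3 and 83.7 CPM, edgeR FDR = 0.0013) in XRN1-null cells, and the other 4 did not pass. Of 10 markers of other cell types, COL1A1 alone was, with 13.9 and 15.4 CPM in WT and 36.8 and 37.3 CPM in XRN1-null RNA-Seq libraries. It was called higher in mRNA (log2 fold change 1.34, edgeR FDR = 1.72e-05), and its footprints had a log2 fold change of 1.18 (FDR = 0.00642). The part of these markers in the values below was not tested, and in such bulk samples fewer cells of a kind and less RNA per cell cannot be told apart.

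Pol II transcribes the protein-coding genes of the nucleus. At a promoter TFIID, which holds the TATA-binding protein and the TAFs, recruits TFIIA and TFIIB, and Pol II arrives with TFIIF before TFIIE and TFIIH open the DNA and phosphorylate the C-terminal domain of the largest subunit. Mediator, built of head, middle, tail and kinase modules around a scaffold subunit, relays signals from activators to this assembly, and factors such as SPT5 and SPT6 then travel with the elongating enzyme.

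Several of these genes have near-identical copies, and the sequences of 2 such families are shown because footprints are short and copies with the same letters cannot be told apart by them. The windows below have 30 bases, were taken from the coding sequence of POLR2J on the GRCh37 assembly (coordinates as in hg19), and were matched without gaps to the other loci of the family on chromosome 7. In the first set all 4 loci carry the same letters.
POLR2J, chr7:102114937-102114966, minus strand: ccgcaagtgctatttgctggctacaaagtc
POLR2J2, chr7:102307666-102307695, minus strand: ccgcaagtgctatttgctggctacaaagtc
POLR2J3, chr7:102208586-102208615, minus strand: ccgcaagtgctatttgctggctacaaagtc
POLR2J4, chr7:44054334-44054363, minus strand: ccgcaagtgctatttgctggctacaaagtc
The second set is the window that differed most among those with at most 4 mismatches at each locus, and capitals mark the bases that differ from POLR2J.
POLR2J, chr7:102116678-102116707, minus strand: aacaaggacaccaaggtacccaatgcctgt
POLR2J2, chr7:102309412-102309441, minus strand: aacaaggacaccaaggtacccaaGgcctgC
POLR2J3, chr7:102210332-102210361, minus strand: aacaaggacaccaaggtacccaatgcctgt
POLR2J4, chr7:44056083-44056112, minus strand: aacaaggacaccaaggtacccaatgcctgt
Of 47 windows taken along the POLR2J coding sequence, 36 were identical in all of the other loci.

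The same was done for GTF2H2, which codes for the p44 subunit of TFIIH, with its copies GTF2H2B and GTF2H2C on chromosome 5. In this set the letters are shared by all loci.
GTF2H2, chr5:70331594-70331623, minus strand: gtttatgtttgtgctgtgtgccaaaatgtt
GTF2H2B, chr5:69743061-69743090, plus strand: gtttatgtttgtgctgtgtgccaaaatgtt
GTF2H2C, chr5:68887906-68887935, plus strand: gtttatgtttgtgctgtgtgccaaaatgtt
The window that differed most had 1 base, in capitals, by which both copies departed from GTF2H2.
GTF2H2, chr5:70338020-70338049, minus strand: gggcaaagtactgtgagctacctgttgagt
GTF2H2B, chr5:69736645-69736674, plus strand: gggcaaagtactgtgagctacctgttgaAt
GTF2H2C, chr5:68881483-68881512, plus strand: gggcaaagtactgtgagctacctgttgaAt
Here 126 of 150 windows were identical in both copies. The annotation (GENCODE release 44 on GRCh37) lists GTF2H2B as a transcribed pseudogene and POLR2J4 as a long noncoding RNA, and GTF2H2C_2 was the only one of the 92 genes not matched in it. Outside these families, 29-nt windows of the coding sequence that occur elsewhere in the genome made up 71.9% for MED27, 64.0% for POLR2M, 51.4% for GTF2I, 35.6% for TAF1, 31.9% for SUPT16H, 24.97% for TAF9B, 21.4% for SUPT4H1 and 20.5% for TAF9. The footprint values of these genes are uncertain to that extent. Their mRNA values may be affected too, but RNA-Seq reads also cover untranslated regions, so these shares do not measure by how much. The remaining genes had at most 14.0% (GTF2H1).

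Counts were scaled within each assay to CPM with the TMM factors of edgeR, and genotypes were compared by the quasi-likelihood test of edgeR. P-values were adjusted over all 10105 genes (Benjamini-Hochberg FDR). A gene was called at an FDR below 0.005. At the mRNA level 17 of the 92 genes were higher and 26 were lower in XRN1-null cells, which is 18.5% and 28.3% of them, and 49 did not pass. Of all genes, 22.9% were called higher and 23.2% lower, so both shares lay within a few percentage points of the background. The median log2 fold change was -0.02, beside -0.01 for all genes. The plot of fold changes by role gives the calls within each complex. Without XRN1-null RNA-Seq replicate 1 the counts were 12 higher and 12 lower (13.0% each, beside 16.2% and 11% of all genes). Without replicate 2 they were 13 higher and 9 lower (14.1% and 9.78%, beside 16.3% and 10.9% of all genes). In these fits a lone library stands for its genotype and is assumed to vary like the others. Fits of 1 assay without a WT library take their spread from the XRN1-null pair, which differed less than the WT pair. The chi-square statistic of the counts per degree of freedom was 3.83 against 24.0 for RNA-Seq and 2.01 against 7.72 for Ribo-Seq. Passing in such a fit therefore does not measure the spread between WT replicates.

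**Figure D1:**
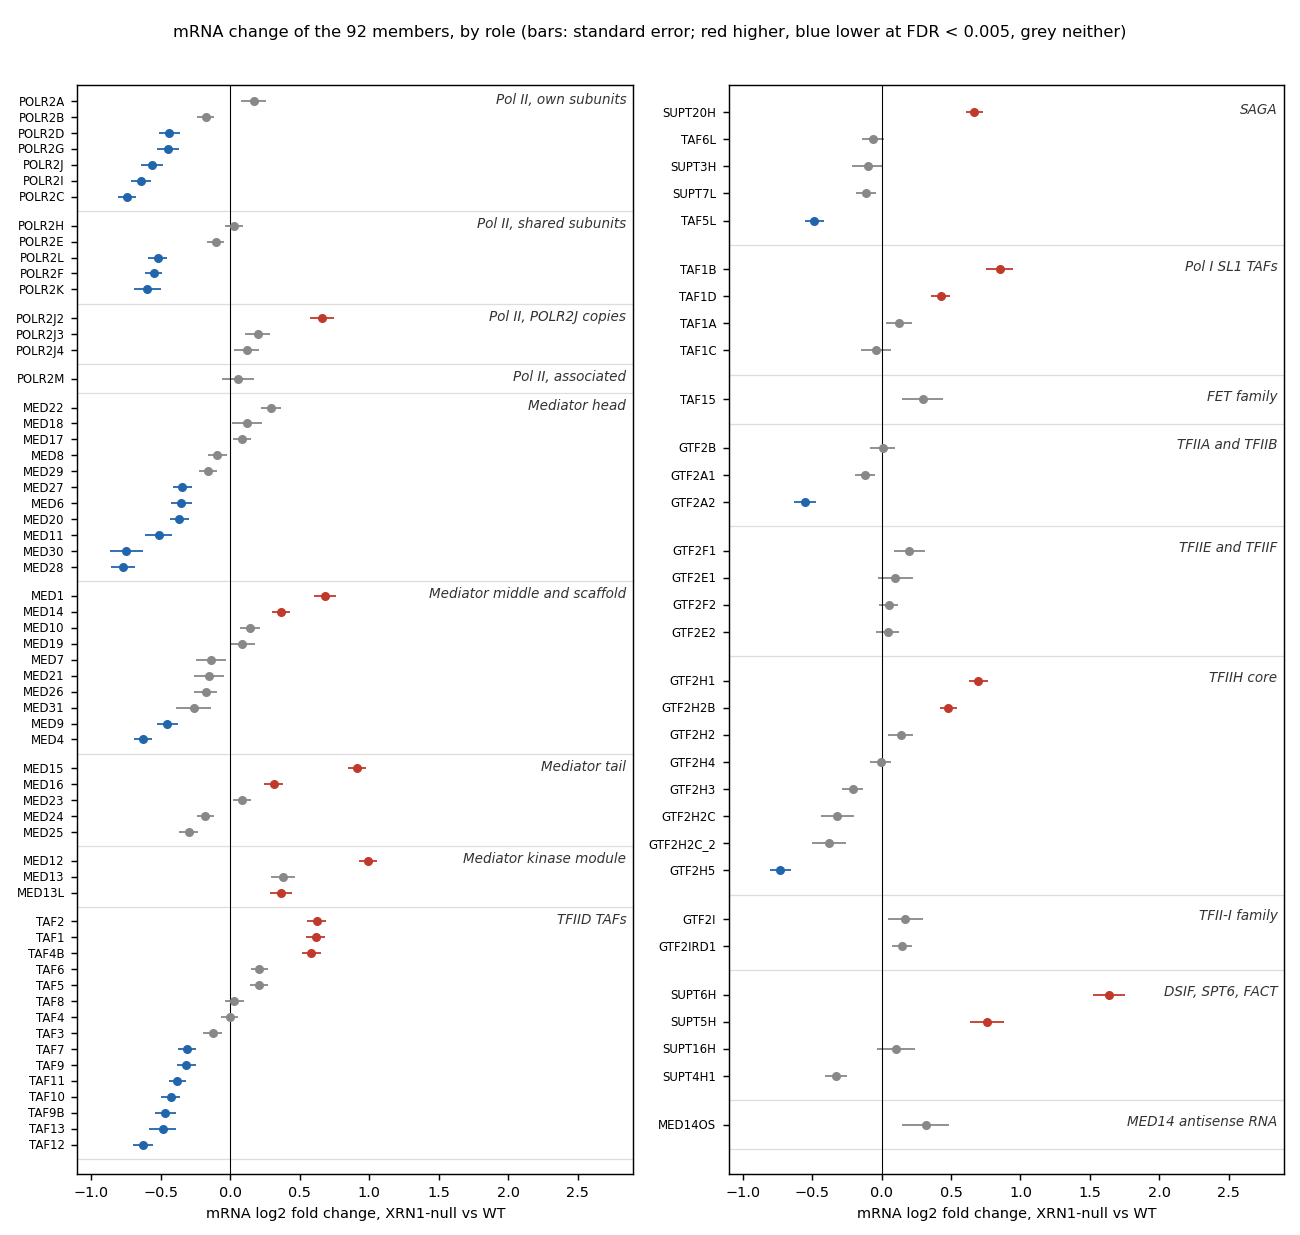
Each point is the mRNA log2 fold change of 1 gene in XRN1-null over WT cells (x axis, n = 2 libraries per genotype) with its standard error as a bar, grouped by role in both panels. Red points were called higher and blue points lower at an FDR below 0.005, grey points neither: 8 Pol II subunits are blue and none red, 2 genes of the Mediator kinase module are red, and SUPT6H has the highest value, 1.63.

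Pol II subunits fell or did not pass, and none was called higher. Of the 12 subunits 8 were lower, where 23.2% of all genes were, and their median mRNA log2 fold change was -0.49, beside -0.01 for all genes. POLR2C, the subunit that pairs with POLR2J in the assembly platform of the enzyme, had 155 and 146 CPM in WT cells and 87.8 and 91.4 CPM in XRN1-null cells. Both XRN1-null libraries lay well below both WT libraries, a 1.68-fold lower level with a log2 fold change of -0.74 (SE 0.0661, edgeR FDR = 6.91e-05). POLR2I, a small zinc-binding subunit, had 81.8 and 74.5 CPM against 49.3 and 50.7 CPM (log2 fold change -0.64, SE 0.0708, edgeR FDR = 0.000176). The stalk subunits POLR2D and POLR2G, which form a heterodimer, fell alike, by 0.44 and 0.45 on the log2 scale, with standard errors of 0.0766 and 0.0795. POLR2J fell by 0.56 on that scale (SE 0.077), and with RNA-Seq counts thinned to the depth of Ribo-Seq it had -0.44 and did not pass (FDR = 0.00524).

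Among the subunits that Pol II shares with Pol I and Pol III, POLR2K, POLR2F and POLR2L were lower. POLR2K had 89.4 and 73.4 CPM in WT cells and 54.8 and 52.8 CPM in XRN1-null cells, without overlap, although the WT libraries differed from each other by more than the XRN1-null libraries did. Its log2 fold change was -0.60 (SE 0.097, edgeR FDR = 0.00114), and without XRN1-null RNA-Seq replicate 2 it was -0.57 and no longer passed (FDR = 0.00506). POLR2F fell by 0.55 (SE 0.0639) and POLR2L by 0.52 (SE 0.0688) on the log2 scale. The other shared subunits did not pass: POLR2E had a log2 fold change of -0.11 (FDR = 0.158) and POLR2H one of 0.03 (FDR = 0.712). Leaving out XRN1-null RNA-Seq replicate 1 left 6 of the 12 subunits lower (POLR2C, POLR2F, POLR2I, POLR2J, POLR2K and POLR2L), and leaving out replicate 2 left 3 (POLR2C, POLR2I and POLR2J), where 11% and 10.9% of all genes were lower. POLR2D and POLR2G passed in neither fit.

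The 2 largest subunits, which form the active centre, were not among those that fell. POLR2A, which carries the C-terminal domain, had 284 and 339 CPM in WT cells and 360 and 341 CPM in XRN1-null cells, so that the closest libraries of the genotypes were nearly level (log2 fold change 0.17, SE 0.0907, edgeR FDR = 0.134). POLR2B had 238 CPM in both WT replicates and 213 and 208 CPM in the XRN1-null replicates (log2 fold change -0.18, SE 0.0603, FDR = 0.0327). Leaving out each RNA-Seq library in turn gave log2 fold changes of 0.07 to 0.30 for POLR2A and -0.19 to -0.16 for POLR2B.

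Footprints of Pol II subunits were also mostly lower, but none passed. The RPF log2 fold change was -0.55 for POLR2C (135 and 105 CPM against 78.7 and 83.7 CPM, edgeR FDR = 0.0355) and -0.73 for POLR2I (82.8 and 65 CPM against 39 and 48.7 CPM, FDR = 0.0167). Neither overlapped between genotypes. For 9 of the 12 subunits both XRN1-null libraries lay below both WT libraries, which held for 32.3% of all genes, and the median RPF log2 fold change of the 12 was -0.36. POLR2A (266 and 351 against 336 and 357 CPM, FDR = 0.497) overlapped.

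**Figure D2:**
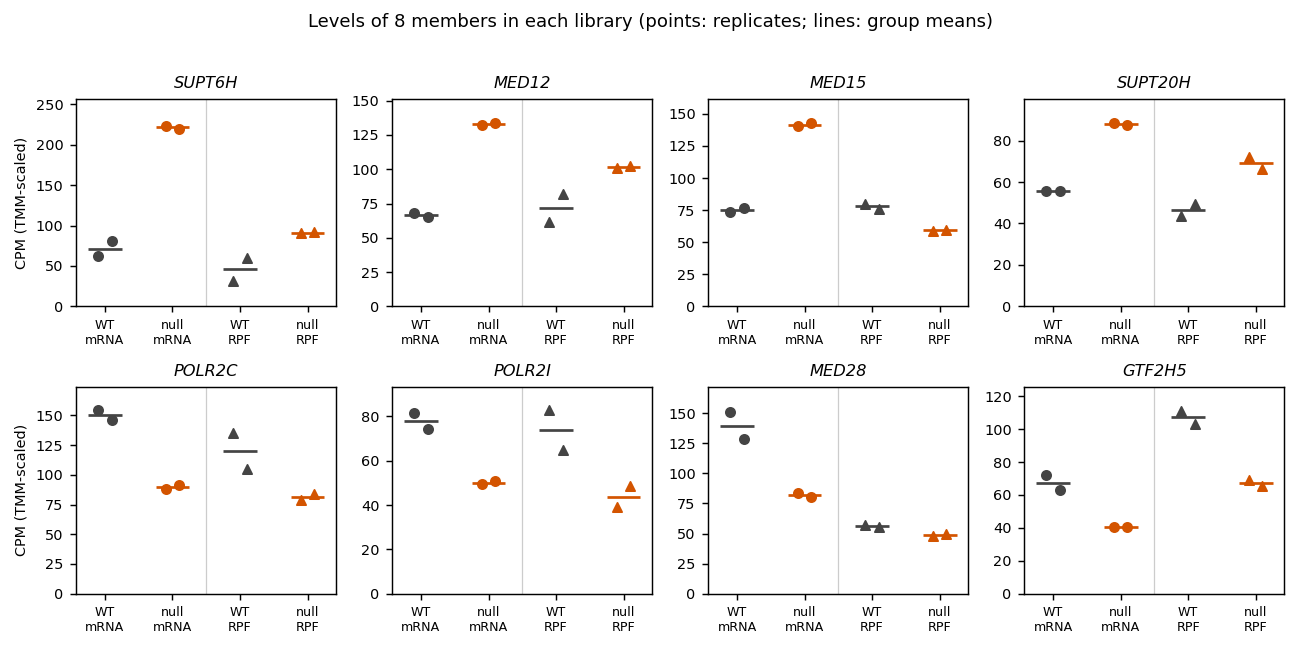
Levels of 8 genes, 1 panel each, in CPM on linear axes from 0, with mRNA as circles and footprints (RPF) as triangles, WT cells in dark grey and XRN1-null cells in orange. Each point is 1 library and each line the mean of 2. The mRNA of SUPT6H, MED12, MED15 and SUPT20H lies higher and that of POLR2C, POLR2I, MED28 and GTF2H5 lower in both XRN1-null libraries, while MED15 footprints lie lower.

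Subunits are present in equal copies in the enzyme, so their levels per length were compared within each library. Per kilobase of gene width, which includes untranslated regions, the SD of the log2 mRNA level over the 12 subunits was 0.646 and 0.628 in WT and 0.543 and 0.561 in XRN1-null libraries. The highest level, that of POLR2L in all RNA-Seq libraries, was 4.51 and 4.36 times the lowest in WT cells and 3.80 and 3.89 times the lowest in XRN1-null cells. The mRNAs of the subunits thus lay closer together in both XRN1-null libraries. For footprints the SD was 1.01 and 0.893 in WT and 0.956 and 0.891 in XRN1-null libraries, so the ranges of the genotypes overlapped. Per kilobase of coding sequence the mRNA SD was 1.15 and 1.06 against 0.979 and 0.978. These are descriptions over 12 genes, without a test.

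Mediator genes were called at close to the background shares. Over its 29 genes 6 were higher (20.7%) and 8 lower (27.6%), beside 22.9% and 23.2% of all genes, with a median log2 fold change of -0.14. The head module, which touches Pol II, had 6 of 11 genes lower and none higher at the mRNA level. MED28 fell most, from 151 and 128 CPM in WT cells to 83.7 and 80 CPM in XRN1-null cells, a 1.71-fold lower level (log2 fold change -0.77, SE 0.0888, edgeR FDR = 0.000213). Its footprints were 57.3 and 55.4 CPM against 47.9 and 49.3 CPM, a smaller difference that did not pass (log2 fold change -0.21, FDR = 0.33). The other lower head genes had mRNA log2 fold changes from -0.75 for MED30 to -0.34 for MED27. For MED27 71.9% of the coding windows occur elsewhere, and how far this affects its mRNA value was not tested. The 5 that did not pass had values from -0.16 for MED29 to 0.29 for MED22. Leaving out either XRN1-null RNA-Seq library left 2 head genes lower, where 11% and 10.9% of all genes were.

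In the middle module and its scaffold 2 of 10 genes rose and 2 fell, where 22.9% and 23.2% of all genes did. MED1, the subunit that binds nuclear receptors, rose from 143 and 135 CPM to 236 and 210 CPM (log2 fold change 0.68, SE 0.0772, edgeR FDR = 0.0002). MED14, the scaffold that joins the modules, rose from 139 and 136 CPM to 183 and 172 CPM (log2 fold change 0.37, SE 0.0641, FDR = 0.00163), and did not pass without XRN1-null RNA-Seq replicate 1 (0.32, FDR = 0.0476) or replicate 2 (0.41, FDR = 0.0168). Part of its locus is overlapped on the other strand by MED14OS, whose RNA-Seq level was 2.71 and 3.2 CPM against 3.46 and 3.88 CPM (FDR = 0.133), and no source states that strand was used in counting. MED4 fell from 77.9 and 72.4 CPM to 49.2 and 48.1 CPM (log2 fold change -0.63, SE 0.0673, FDR = 0.000159), with footprints of 67.2 and 59.5 CPM against 64.1 and 52.4 CPM that overlapped between genotypes. MED26, which links Mediator to elongation factors, was low and did not pass, with 20.4 and 20.5 against 17.6 and 18.5 CPM (FDR = 0.0878). Its footprints were few, 6.25 and 12.9 CPM in WT cells and 10.4 and 7.49 CPM in XRN1-null cells.

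The kinase module, which docks on Mediator reversibly, had 2 of its 3 genes with a matching symbol higher, and 1 of 3, MED12, without either XRN1-null RNA-Seq library. Of all genes 22.9% were higher with all libraries and 16.2% and 16.3% in those fits. MED12, the activator of its kinase, had 68.2 and 65.4 CPM in WT cells and 132 and 134 CPM in XRN1-null cells, a 1.99-fold higher level (log2 fold change 0.99, SE 0.0632, edgeR FDR = 1.8e-05). Its footprints were 61.5 and 81.8 CPM against 101 and 102 CPM, higher in both XRN1-null libraries without passing (log2 fold change 0.48, FDR = 0.0584). With each Ribo-Seq library left out in turn the change was 0.32 to 0.74, the highest without WT replicate 2. MED13, which tethers the module, had 159 and 139 against 205 and 184 CPM of mRNA, just short of the threshold (log2 fold change 0.38, FDR = 0.00573). With each RNA-Seq library left out in turn the MED13 change was 0.29 to 0.50. Its paralog MED13L passed with 0.36 (FDR = 0.00426). The partners whose symbols lack the stem were not called alike. CDK19, the paralog of the kinase CDK8, rose from 40.8 and 36.7 to 59.8 and 58.9 CPM (log2 fold change 0.61, FDR = 0.000242). CDK8 itself had 38.8 and 39 against 40.3 and 42.8 CPM (FDR = 0.248) and the cyclin CCNC 149 and 126 against 121 and 110 CPM (FDR = 0.04), and neither passed.

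In the tail module MED15, a target of activation domains, was the gene whose mRNA and footprints parted most. Its mRNA rose from 73.6 and 76.8 CPM in WT cells to 141 and 143 CPM in XRN1-null cells, 1.88-fold (log2 fold change 0.91, SE 0.063, edgeR FDR = 2.39e-05). Its footprints were 79.7 and 76.3 CPM in WT cells and 59.1 and 59.3 CPM in XRN1-null cells, lower in both libraries (log2 fold change -0.39, SE 0.137, FDR = 0.0712). Translational efficiency (TE) was taken as footprints over mRNA, and an interaction term of genotype with assay, fitted over all 8 libraries, tested whether it differed. For MED15 the ratio was 1.08 and 0.993 in WT replicates against 0.422 and 0.418 in XRN1-null replicates. This 2.47-fold lower TE had a log2 change of -1.30 (SE 0.131, edgeR FDR = 0.000144) and did not pass without XRN1-null Ribo-Seq replicate 1 (-1.30, FDR = 0.00589). MED15 lies on chromosome 22 from 20850200 to 20941919, plus strand, and 3.42% of the 29-nt windows of its coding sequence occur elsewhere in the genome. The other tail genes had mRNA log2 fold changes from -0.30 for MED25 to 0.31 for MED16, and of these MED16 was called (FDR = 0.00439), though not without either XRN1-null RNA-Seq library.

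Of the 15 TFIID TAFs 3 were higher and 7 lower, where 22.9% and 23.2% of all genes were. TAF1, the largest subunit and a reader of acetylated histones, had 46.8 and 45.1 CPM in WT cells and 73.3 and 67.5 CPM in XRN1-null cells (log2 fold change 0.62, SE 0.0696, edgeR FDR = 0.000199). TAF2, which contacts core promoter DNA, rose from 102 and 93.5 CPM to 152 and 149 CPM (log2 fold change 0.62, SE 0.068, FDR = 0.000171). The footprints of both stayed close to the WT values, with 39.1 and 40.2 against 44.7 and 40 CPM for TAF1 and 73.4 and 77.4 against 72.8 and 80.2 CPM for TAF2, and overlapped between genotypes. The TE changes were -0.52 for TAF1 (FDR = 0.0554) and -0.61 for TAF2 (FDR = 0.0207), short of the threshold. TAF4B, a paralog of TAF4, was also higher in mRNA (log2 fold change 0.58, FDR = 0.000213).

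The 7 lower TAFs were TAF7, TAF9, TAF9B, TAF10, TAF11, TAF12 and TAF13. TAF12 had 47.3 and 43.7 CPM in WT cells and 29.8 and 29.1 CPM in XRN1-null cells (log2 fold change -0.63, SE 0.0728, edgeR FDR = 0.000221). TAF10 had 101 and 92.5 against 72.4 and 71.5 CPM (log2 fold change -0.43, FDR = 0.00112), and TAF9 109 and 104 against 87.4 and 83.5 CPM (log2 fold change -0.32, FDR = 0.00384). The paralog TAF9B fell by 0.47 (FDR = 0.00107) and TAF7, which restrains TAF1, by 0.31 (FDR = 0.0035) on the log2 scale. None of TAF10, TAF9, TAF9B and TAF7 passed without XRN1-null RNA-Seq replicate 1, with FDR values of 0.0133, 0.0357, 0.0106 and 0.0694, or without replicate 2, with 0.0164, 0.0801, 0.0118 and 0.0457. In either fit 1 TAF of TFIID, TAF12, was lower, where 11% and 10.9% of all genes were. TAF12 did not pass with RNA-Seq thinned (-0.46, FDR = 0.0183). TAF11 and TAF13, which pair with each other, fell by 0.38 and 0.49 on the log2 scale. TAF3, TAF5, TAF6 and TAF8 did not pass and had values from -0.13 to 0.21. TAF4, a scaffold of TFIID, had 46.7 CPM in both WT libraries and 47.2 and 46 CPM in the XRN1-null libraries, which overlapped (FDR = 0.966). Footprints of TAF10 were 65.1 and 50.5 against 35.5 and 37.1 CPM (log2 fold change -0.64, FDR = 0.0247).

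SAGA shares TAF9, TAF9B, TAF10 and TAF12 with TFIID, whose mRNA values are given above. Of its 5 other genes with a matching symbol 1 rose and 1 fell, close to the 22.9% and 23.2% of all genes. SUPT20H rose from 55.4 and 55.6 CPM to 88.6 and 87.6 CPM (log2 fold change 0.67, SE 0.0612, edgeR FDR = 7.95e-05), with footprints of 43.8 and 49.4 against 72 and 66.5 CPM (log2 fold change 0.56, FDR = 0.0266). With each Ribo-Seq library left out in turn this footprint change was 0.50 to 0.68. TAF5L fell from 117 and 109 CPM to 82.2 and 79.6 CPM (log2 fold change -0.48, SE 0.0678, FDR = 0.00055), and did not pass without XRN1-null RNA-Seq replicate 1 (FDR = 0.0059) or replicate 2 (FDR = 0.0103). Of the SL1 TAFs, which serve Pol I at ribosomal DNA, 2 of 4 (TAF1B and TAF1D) were higher, and TAF1B alone without either XRN1-null RNA-Seq library (all genes 16.2% and 16.3%). TAF1B had 23.3 and 19.8 CPM in WT cells and 40.7 and 37.1 CPM in XRN1-null cells (log2 fold change 0.85, SE 0.0988, FDR = 0.000223), while its footprints of 33.9 and 29.4 against 31.5 and 32.2 CPM overlapped. TAF15, an RNA-binding protein of the FET family, differed between the WT libraries in both assays (137 and 193 CPM of mRNA, 112 and 206 CPM of footprints) and had 192 and 214 CPM and 221 and 262 CPM in XRN1-null cells (mRNA FDR = 0.11, RPF FDR = 0.0984). With each library left out in turn its mRNA log2 fold change was 0.09 to 0.57 and its RPF change 0.23 to 1.11. Each was highest without WT replicate 2 of the assay.

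Of the 15 genes of TFIIA to TFIIH, 2 were higher and 2 lower at the mRNA level, below the 22.9% and 23.2% of all genes. GTF2A2, the small subunit of TFIIA, fell from 78.4 and 68.7 CPM to 51.1 and 49.2 CPM (log2 fold change -0.55, SE 0.0797, edgeR FDR = 0.000637) and did not pass without XRN1-null RNA-Seq replicate 2 (-0.52, FDR = 0.00514). GTF2B, which codes for TFIIB, had 31.4 and 36.5 against 33.3 and 35 CPM, so that the XRN1-null libraries lay within the WT range (log2 fold change 0.01, FDR = 0.936). None of the 4 genes of TFIIE and TFIIF passed, with log2 fold changes from 0.04 to 0.20. GTF2A1, the large subunit of TFIIA, had 89 and 80.9 against 77 and 79.7 CPM of mRNA (FDR = 0.183) and 54.2 and 61.6 against 96.1 and 79.9 CPM of footprints (log2 fold change 0.59, FDR = 0.024), which gave the highest TE change of the 92 genes, 0.71 (FDR = 0.0185). In TFIIH, GTF2H1, the p62 subunit, rose from 67.1 and 61.9 CPM to 104 and 105 CPM (log2 fold change 0.70, SE 0.0677, FDR = 0.000101). GTF2H5, its smallest subunit, fell from 71.9 and 63 CPM to 40.7 and 40.8 CPM (log2 fold change -0.73, SE 0.0787, FDR = 0.000165). The footprints of GTF2H5 were 111 and 103 CPM in WT cells and 69.3 and 65.2 CPM in XRN1-null cells, a difference that matched that of its mRNA in size (log2 fold change -0.66, SE 0.138, FDR = 0.0105). With each Ribo-Seq library left out in turn this footprint change was -0.71 to -0.61. GTF2I of the TFII-I family, a DNA-binding factor that is no part of the general machinery, had 77.8 and 106 against 103 and 104 CPM (FDR = 0.268). With each RNA-Seq library left out in turn its log2 fold change was -0.01 to 0.41, the highest without WT replicate 2.

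SUPT6H had the largest mRNA change of the 92 genes. It codes for SPT6, a histone chaperone that binds elongating Pol II, and lies on chromosome 17 from 26989216 to 27029697, plus strand. Its mRNA was 62.3 and 80.4 CPM in WT cells and 223 and 220 CPM in XRN1-null cells, a 3.11-fold higher level that far exceeded the spread within either genotype (log2 fold change 1.63, SE 0.114, edgeR FDR = 2.5e-05). Its footprints were 31.8 and 59.7 CPM in WT cells and 90.6 and 92.1 CPM in XRN1-null cells, without overlap. They did not pass by the test described above (log2 fold change 0.92, SE 0.211, edgeR FDR = 0.0158). Without WT Ribo-Seq replicate 1 the footprint change was 0.62 and without WT replicate 2 it was 1.53, so the WT libraries set its size. SUPT5H, the large subunit of the elongation factor DSIF, rose from 69.3 and 91.8 CPM to 135 and 137 CPM (log2 fold change 0.76, SE 0.121, FDR = 0.00102), with footprints of 34.4 and 55.6 against 70.3 and 74.3 CPM (FDR = 0.0458). With each Ribo-Seq library left out in turn its footprint change was 0.38 to 1.08, the highest without WT replicate 2. SUPT16H, a subunit of the histone chaperone FACT, had 243 and 340 against 308 and 319 CPM of mRNA and did not pass (FDR = 0.523). With each library left out in turn its mRNA log2 fold change was -0.10 to 0.36 and its RPF change 0.02 to 0.76. Both were highest without WT replicate 2 of the assay. SUPT4H1, the small subunit of DSIF, had 121 and 108 against 95 and 87.1 CPM (log2 fold change -0.33, FDR = 0.00826), opposite in sign to SUPT5H. The WT replicates of SUPT6H, SUPT5H and SUPT16H differed in the same direction in both assays, replicate 1 being the lower.

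At the footprint level none of the 92 genes passed, where 0.633% of all genes were called higher and 1.14% lower. With the replicate number as a block in the fit, 5 were higher and 5 lower, where 6.1% and 6.58% of all genes were. At an unadjusted p below 0.05 there were 28 of the 92 genes (33% of all genes), and DESeq2 at the same FDR called none of them either. At an FDR below 0.05, 5 were higher and 6 lower, where 7.07% and 8.38% of all genes were. The counts depended on the WT libraries: without WT Ribo-Seq replicate 1, the shallowest, 4 were higher (GTF2A1, GTF2F2, SUPT20H and SUPT6H) and 2 lower (GTF2H5 and POLR2I), or 4.35% and 2.17%, where 5.82% and 7% of all genes were. Without WT replicate 2, 11 were higher (GTF2A1, GTF2F2, GTF2I, MED12, POLR2A, SUPT16H, SUPT20H, SUPT5H, SUPT6H, TAF15 and TAF1D) and 8 lower (GTF2H5, POLR2C, POLR2F, POLR2I, POLR2J2, POLR2J3, POLR2L and TAF10), or 12% and 8.70%, where 12.7% and 10.8% of all genes were. The direction of the footprint change mostly followed that of the mRNA. Of the 17 genes with higher mRNA 15 had a positive RPF change, 88.2% beside 83.1% of all genes with higher mRNA, and of the 26 with lower mRNA 24 had a negative one, 92.3% beside 94.1%. MED15 and POLR2J2 were the exceptions among the higher genes. In 36 of the 43 genes called for mRNA, a choice that favours large mRNA values, the RPF change was smaller in size than the mRNA change, as in 3606 of 4657 called genes of the whole table. Across the 92 genes, which are not independent replicates and share their libraries, Spearman's rho between mRNA and RPF log2 fold changes was 0.64, beside 0.69 over all genes.

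**Figure D3:**
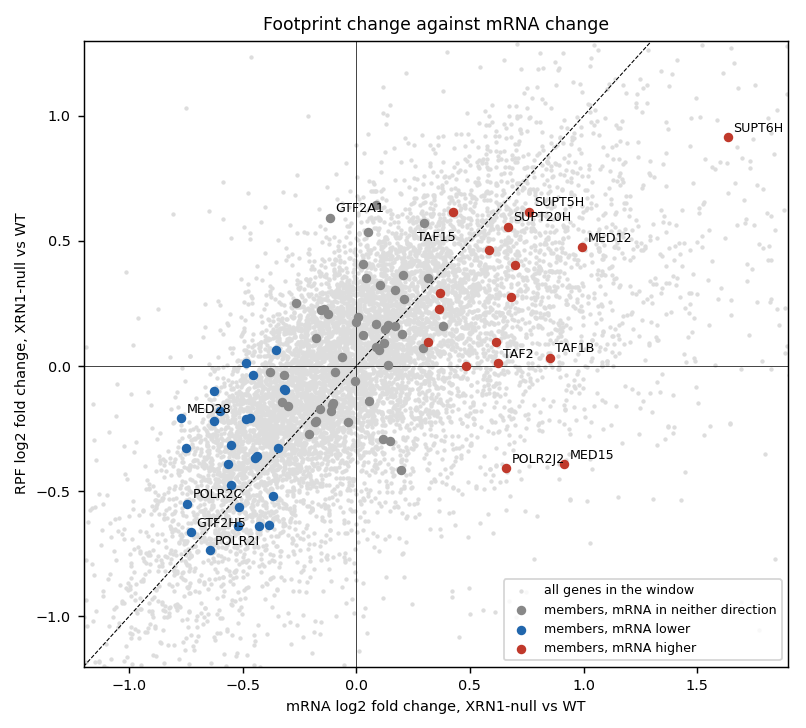
Log2 fold change in XRN1-null over WT cells of footprints (y axis) against mRNA (x axis), with the 92 genes coloured by their mRNA call, all genes within the axes in light grey and a dashed line of equal change. MED15 (0.91 and -0.39) and POLR2J2 (0.66 and -0.41) are the red points well below 0 on the y axis.

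TE passed for 2 of the 92 genes, both lower, where 1.78% of all genes were called lower and 0.0495% higher. At an FDR below 0.05 there were 1 higher and 6 lower, beside 1.02% and 6.46% of all genes. Besides MED15 the gene past the stricter threshold was POLR2J2. With XRN1-null Ribo-Seq replicate 1 left out neither passed, with replicate 2 or with XRN1-null RNA-Seq replicate 1 left out MED15 alone did. The mRNA count of POLR2J2 rose from 18.7 and 17.7 CPM in WT cells to 30 and 27.7 CPM in XRN1-null cells (log2 fold change 0.66, SE 0.0842, edgeR FDR = 0.000349), whereas its footprint count was 119 and 99.7 CPM in WT cells and 80.2 and 83.3 CPM in XRN1-null cells (log2 fold change -0.41, FDR = 0.0758). The ratio was 6.22 and 5.50 in WT replicates against 2.65 and 2.98 in XRN1-null replicates, a log2 change of -1.06 (SE 0.144, FDR = 0.00119). It did not pass without XRN1-null RNA-Seq replicate 1 (FDR = 0.00935), XRN1-null Ribo-Seq replicate 1 (-1.03, FDR = 0.022) or replicate 2 (-1.08, FDR = 0.0137).

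The footprint counts of the POLR2J genes were alike while their mRNA counts were not. In WT cells POLR2J, POLR2J2, POLR2J3 and POLR2J4 had 80.7, 119, 129 and 91.7 CPM of footprints in replicate 1, but 69, 18.7, 12.6 and 19.5 CPM of mRNA. All 4 had lower footprint values in both XRN1-null libraries, with log2 fold changes from -0.42 to -0.29. At the mRNA level POLR2J alone fell. In a separate count over the whole genome, 71.5% of the 29-nt windows of the POLR2J coding sequence and 63.4% of those of POLR2J2 occur elsewhere in the genome. The TE of POLR2J2 is therefore uncertain, since the footprints counted for it may come from its copies, and how the counting placed such reads is not given in the sources used here.

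The GTF2H2 genes showed this more plainly. Their footprint values in WT replicate 1 were 181 CPM for GTF2H2, 186 for GTF2H2B, 186 for GTF2H2C and 183 for GTF2H2C_2, and the FDR of their RPF changes was 0.885 or more. Their mRNA values in the same replicate were 14.1, 61.8, 16.4 and 19.2 CPM. GTF2H2B, which is annotated as a pseudogene, was called in mRNA with all libraries, from 61.8 and 60.8 to 86.9 and 84.1 CPM (log2 fold change 0.48, edgeR FDR = 0.000378), but not without XRN1-null RNA-Seq replicate 1. The others were not called with all libraries. Without WT RNA-Seq replicate 1 the log2 fold change was -0.42 for GTF2H2C and -0.50 for GTF2H2C_2. Values of single genes in this family are uncertain for the same reason.

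**Figure D4:**
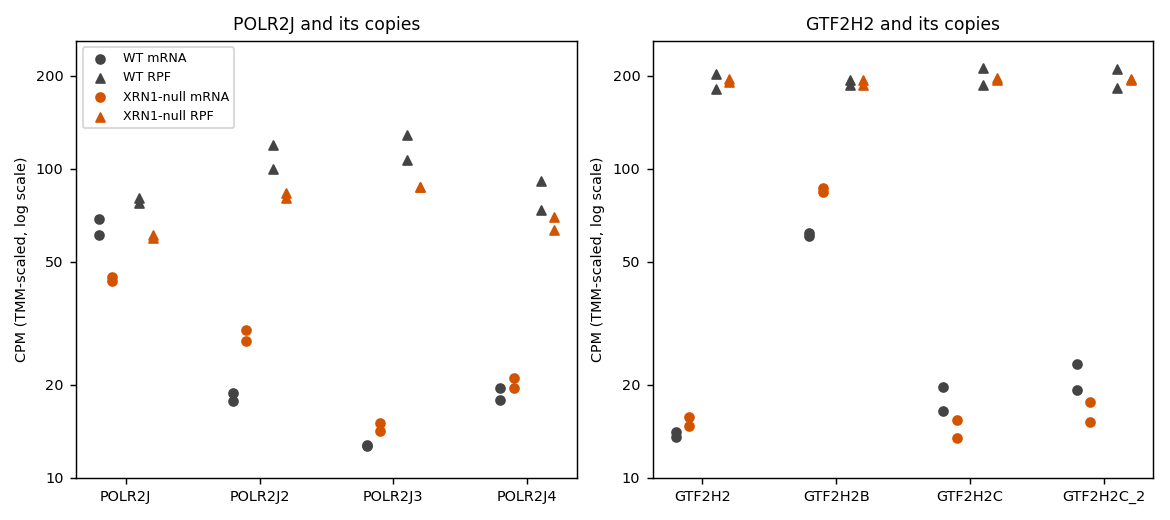
Levels of the POLR2J genes (left) and GTF2H2 genes (right) in CPM on log axes, with mRNA as circles, footprints (RPF) as triangles, WT cells in dark grey and XRN1-null cells in orange, 1 point per library. In WT cells the footprints of the GTF2H2 genes lie between 181 and 212 CPM, while their mRNA runs from 13.6 to 61.8 CPM.

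In WT cells the median log2 TE of the 92 genes was -0.14 and -0.10 in replicates 1 and 2, above the medians of all genes, -0.29 and -0.27. Over the mean of both replicates the median was -0.12, and -0.24 without the near-copy genes. Without the 21 genes that had over 10% of their 29-nt windows elsewhere in the genome or no annotation, the medians were -0.17 and -0.14 in replicates 1 and 2. The lowest values were those of MED9, a middle subunit of Mediator (-2.23 and -2.37), TAF4B (-2.01 and -2.33) and TAF1C (-2.13 and -1.92). The highest were those of the GTF2H2 and POLR2J copies, up to 3.64 and 3.85 for GTF2H2. Pol II subunits themselves lay between, from -1.47 and -1.17 for POLR2D to 0.75 and 0.84 for POLR2H.

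The direction of the mRNA change went with the width of the gene, the length of its merged exons in the table. The median width was 4374 nt for the 17 higher genes, 1801.5 nt for the 26 lower genes and 3014 nt for the rest, beside 4485, 2348.5 and 3171 nt for all genes. The table was split by width into classes of equal size. Among the 44 genes of the short class (up to 2413 nt) 2 were higher and 21 lower, and among the 23 of the long class (4235 nt and more) 9 were higher and 2 lower. Over all genes 10.8% of the short class were higher and 36.2% lower, and 37.1% and 12.6% of the long class. Across the 92 genes Spearman's rho between width and mRNA log2 fold change was 0.47, and 0.35 across all genes. These are descriptions, since genes of a library share its depth and composition.

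Pol II subunits other than POLR2A and POLR2B are mostly short, so each gene was also set beside the 501 genes nearest to it in width. For the 12 subunits the median of these neighbours was -0.14, and the median difference from them was -0.19 in place of -0.49. Below their neighbours were 10 of the 12, though POLR2A (-0.015) and POLR2L (-0.09) only slightly. POLR2C and POLR2F differed most, by -0.60 and -0.53, whereas POLR2G, at 837 nt, lay at its neighbours' median (0.01).

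**Figure D5:**
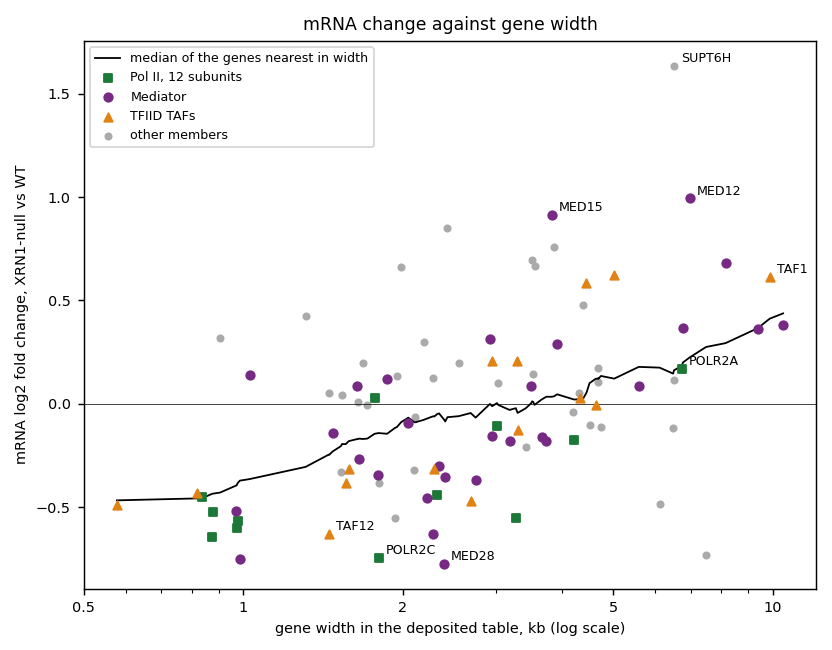
mRNA log2 fold change in XRN1-null over WT cells (y axis) against gene width in kb (x axis, log scale) for the 92 genes, coloured by complex, with a line for the median of the 501 genes nearest in width. The line runs from below 0 for short genes to above 0 for long ones, and 10 of the 12 Pol II subunits lie below it, POLR2A barely.

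Of genes that belong to the same assemblies under other names, 21 of 23 listed were in the table, and 4 were higher and 4 lower at the mRNA level, close to the 22.9% and 23.2% of all genes. TBP, the TATA-binding protein itself, had 37.8 and 38.8 CPM in WT cells and 32.6 and 33 CPM in XRN1-null cells (log2 fold change -0.22, edgeR FDR = 0.0204). The largest rise was that of TADA2A, an adaptor of histone acetyltransferase complexes, from 14.8 and 18.1 CPM to 36.8 and 34.9 CPM (log2 fold change 1.12, FDR = 9.09e-05), and the largest fall that of SGF29, a SAGA subunit, from 18 and 17.1 CPM to 9.46 and 10.1 CPM (log2 fold change -0.85, FDR = 0.000186).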

How the data were processed

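RNA-Seq and Ribo-Seq libraries were made from WT and XRN1-null HEK293T cells, with 2 replicates for each, and grouped by the sample labels. Per the study's methods and the submitters' processing notes, the authors filtered out ribosomal RNA (Bowtie2), aligned reads to hg19 with TopHat2, kept footprints of suitable length, counted reads per gene with QuasR and kept genes above an FPKM of 2. They deposited raw counts per gene, with a width per gene, which were used here as deposited. Their log2 fold changes, p-values, FDR values and TE ratios from edgeR and RiboDiff are also in the table and were not used. Because counts were kept only for genes above the minimum, members under it are not analysed here. The RNA library kit is not stated to keep strand, and 48 of the 91 annotated members overlap a gene on the other strand.

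All 10105 genes entered each fit. With edgeR 4.0.16 in R 4.3.3, TMM factors were computed within each assay and genotype was tested per assay by the quasi-likelihood test; TE was the interaction of assay and genotype over 8 libraries, and log2 TE per library had 0.5 CPM added. Genes were called at a Benjamini-Hochberg FDR below 0.005, the threshold of the study. The study reported more changed genes for mRNA, footprints and TE than were called here. Statements that genes passed or did not pass therefore hold for the tests used here. SE was obtained as log2 fold change over the root of the F statistic. The functions were tested on simulated data. With 2 replicates, p-values rest on the spread between these libraries, and counts include PCR duplicates. Alternatives were RLE factors, library totals, DESeq2 1.42.0, a minimum of 10 counts, an FDR of 0.05, RNA-Seq thinned to the depth of Ribo-Seq, replicate blocks, other memberships and leaving out each library. Width neighbours, coding length, membership by repeated windows and the alternatives for WT TE were added after the data were seen.

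Positions, gene types and coding sequences came from GENCODE release 44 on GRCh37, and 29-nt windows were counted in that genome with Python 3.11.15. The members and gene lists were chosen with earlier results of these data known. Named genes were, within each role, the largest rise and fall among called genes without overlap between genotypes, a set of core subunits whatever their values, and every gene called for RPF or TE. Other members were named after their values were seen.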

Additional observations from a re-analysis of the deposited data

How the results depend on the processing

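Of the fold changes of the 36 named genes, none that was called in the main fit changed sign under any setting. Signs of values not called in that fit were not counted. Some of these did change sign, as for SUPT16H mRNA (-0.10 to 0.36 with a library left out). For the 92 genes together, mRNA calls lower numbered 13 after thinning RNA-Seq to the Ribo-Seq totals and 9 to 33 when a library was left out, and mRNA calls higher 12 to 25; the upper ends came without WT RNA-Seq replicate 2, where 33.5% of all genes were lower and 33.7% higher. RPF calls were 5 higher and 6 lower at an FDR of 0.05, and 0 to 11 higher and 0 to 8 lower with a library left out. TE calls were 1 higher and 6 lower at an FDR of 0.05, and 1 lower after thinning or without the near-copy genes. They were also 1 lower without the 21 genes that had over 10% of their windows elsewhere or no annotation. The median WT log2 TE was -0.24 without near copies. The SD of levels per length over the Pol II subunits was 0.667 (WT) and 0.571 (XRN1-null) for mRNA without POLR2J; per coding length it was 1.11 and 0.979 for mRNA and 1.14 and 1.03 for RPF. Over all genes RPF calls were 64 higher and 115 lower, 133 and 164 with library totals, 98 and 120 with DESeq2, and 714 and 847 at an FDR of 0.05. TE calls were 5 higher and 180 lower, 7 and 322 with DESeq2, and 103 and 653 at an FDR of 0.05. Why the counts moved was not tested, except that a looser threshold raises them by construction. Over all genes, mRNA calls rose without a WT RNA-Seq library and fell without an XRN1-null RNA-Seq library. After thinning, the mRNA calls over all genes were 1803 higher and 1655 lower, and 15 of the 92 genes were higher: MED13 was gained, and GTF2H2B, MED11, MED13L, MED16, MED20, MED27, MED30, MED6, POLR2G, POLR2J, TAF10, TAF11, TAF12, TAF13, TAF5L and TAF9 were lost.

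The labels number the replicates but do not say that a number marks a shared batch. Deviations of same-numbered libraries correlated across genes at 0.190 in mRNA, 0.0803 in RPF, 0.355 between the assays in WT and 0.0326 in XRN1-null cells, and 2 pairs do not settle whether the numbers pair the samples. With the replicate number as a block, mRNA calls were 20 higher and 28 lower (28.3% and 27.8% of all genes). It added MED13 (FDR = 0.000198), MED22 (0.00192), MED25 (0.00158), SUPT4H1 (0.00079) and TAF15 (0.00374) and lost none. In the RPF fit with this block 5 of the 92 genes were called higher (GTF2A1, SUPT5H, SUPT6H, TAF15 and TAF1D) and 5 lower (GTF2H5, POLR2C, POLR2I, POLR2L and TAF10), and over all genes 616 and 665. With the replicate number within each genotype as a block, TE calls were 1 higher (GTF2A1) and 4 lower (MED15, POLR2J2, TAF1B and TAF2). Over all genes they were 55 and 435. The labels do not say that same-numbered RNA-Seq and Ribo-Seq libraries came from the same cells, which this block assumes.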

Other observations

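Other transcription genes were listed for comparison. Of 39 elongation and C-terminal domain factors in the table, 8 were higher and 5 lower in mRNA (edgeR's quasi-likelihood test, FDR below 0.005), where 22.9% and 23.2% of all genes were, with a median log2 fold change of 0.13. The largest rise was that of CDK13, a C-terminal domain kinase, from 48.3 and 52.7 CPM in WT cells to 90 and 84.8 CPM in XRN1-null cells (log2 fold change 0.79, edgeR FDR = 8.04e-05). TCEB2, which codes for elongin B, had the largest fall, from 167 and 152 CPM to 85.9 and 87.9 CPM (log2 fold change -0.87, edgeR FDR = 4.51e-05).

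Of 19 subunits of Pol I and Pol III without the POLR2 stem, 6 were higher and 5 lower, beside the same shares of all genes. The large Pol III subunit POLR3A had 93.3 and 114 CPM in WT cells and 196 and 199 CPM in XRN1-null cells (log2 fold change 0.93, edgeR FDR = 0.000136). The small subunit POLR3K fell from 125 and 117 CPM to 51.5 and 54.3 CPM (log2 fold change -1.19, edgeR FDR = 1.37e-05), and its footprints were also called lower (log2 fold change -1.18, edgeR FDR = 0.00318).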
